A study of Mus musculus with 20 samples.

Results

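Induced XEN cells (iXEN) were compared with the mouse embryonic stem (ES) cells they were made from, gene by gene and pathway by pathway. The 4 libraries concerned, 2 titled ES, 0h and 2 titled iXEN, were taken by their titles from the 20 of the series, and they held 29614 of its 113288 cells with 500 or more detected genes. Both groups were the same line, iGata4-Gata6-Venus, of genotype Col1A1TetO-Gata4/+; R26M2rtTA/+; Gata6H2B-Venus/+. It carries an inducible Gata4 fused to mCherry at the Col1a1 locus, the transactivator M2rtTA at Rosa26 and an H2B-Venus reporter in 1 Gata6 allele. The study's reference for that Gata6 allele names it as loss-of-function as well as a reporter. Both groups held these alleles, and the comparison rests on a single line. The ES cells were grown in serum and LIF on gelatin and had received no doxycycline. The iXEN cells had been given doxycycline for some days in the same medium and were then kept without the drug before collection, so the transgene was no longer induced. The methods describe no sorting step for either group. The methods give a separate XEN medium for established iXEN cells, so a change of medium cannot be told apart from the change of cell state.

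Primitive endoderm is the extraembryonic lineage that splits from the pluripotent epiblast in the blastocyst, and GATA6, SOX17, GATA4 and SOX7 are among its main transcription factors. It gives rise to parietal endoderm, which secretes the thick laminin and type IV collagen sheet of Reichert's membrane, and to visceral endoderm, an absorptive epithelium that takes up maternal proteins and secretes carrier proteins much as the later liver does. XEN cells are the cultured form of this lineage. ES cells are the cultured form of the epiblast, held in the naive state by OCT4 (gene Pou5f1), SOX2, NANOG, ESRRB and the LIF pathway.

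Transcripts had been tagged at the 3′ end in droplets and counted as unique molecular identifiers (UMIs), and the UMIs of all retained cells were summed within each library. The sums were 110604591 and 138204184 UMIs for ES replicates 1 and 2 and 48141903 and 56997768 for iXEN. The ES libraries held 7669 and 9246 cells at medians of 13140 and 13154 UMIs per cell, and the iXEN libraries 5912 and 6787 cells at 7394.5 and 7441. The limit of 500 genes had left out 450 and 271 cells of the ES libraries and 2070 and 1807 of the iXEN libraries. With a limit of 1000 genes in its place, 6994 genes passed the rule for a call given below, against 6990. Levels are given as CPM, the usual share of a library's UMIs, with library sizes scaled by TMM, in the order replicate 1, replicate 2. Since whole libraries are summed, fewer cells of a type and less RNA per cell cannot be told apart. Between 49 and 88 cell barcodes were shared by any pair of these libraries. The deposited name of each library carries a number that is read here as its sequencing project, though the methods do not define it. By this number both ES libraries were of 1 project and both iXEN libraries of another, so project and condition cannot be told apart. The libraries 24h replicate 1 and 48h replicate 1, from the same line during induction, were of the project of iXEN, and their levels are set beside the main genes.

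The libraries within a group, which the study calls technical duplicates, differed more than counting error allows, and iXEN more than ES. The standard deviation of the log2 ratio between the duplicates was 0.319 for ES and 0.567 for iXEN, and the chi-square of their counts per degree of freedom was 132 and 227, against 10.3 for the 9h duplicates. Replicate 1 of iXEN stood apart in a group of cells chosen here after their values were seen: 133 of its 5912 cells (2.25%, 95% Wilson interval 1.90 to 2.66%) held 2 or more UMIs of T (brachyury, the transcription factor of the primitive streak), and 0 of 6787 cells did in replicate 2, where a count of 0 allows up to 0.0442% by a limit of 3 cells and up to 0.0566% by the Wilson interval. In these 133 cells Sparc was at 1202 unscaled CPM against 9227 in the other cells of the library, and Pou5f1 was at 222 against 9.13. The shares of iXEN cells with Sparc and with Col4a1, given below, were also lower in replicate 1 than in replicate 2. Replicate 1 of ES held 312 of the 354 cells of an ES cluster whose summed naive genes were at 0.124 of the level of the median cluster. The study reported batch effects among the time points of this conversion and corrected them. It also left out a group of ES cells that were differentiating spontaneously. Neither step was taken for the values reported here, though leaving out this cluster was an alternative. All p-values below rest on the spread between duplicates over the 10 libraries fitted, which may be technical. The 24h and 48h duplicates were each split between 2 sequencing projects, so that spread also holds a project difference. Intervals on cells cover counting error only.

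The genes that define the 2 states separated the libraries with no overlap, as most genes did. Of 15723 genes tested, 6085 were higher in both iXEN libraries than in either ES library, and 6262 were lower. Gata4 (chr14:63198922-63271692, minus strand, GRCm38), the factor whose induction starts the conversion, was at 0.382 and 0.157 CPM in the ES libraries and 158 and 347 CPM in the iXEN libraries (log2 fold change 9.89, SE 0.64, adjusted p = 7.3e-06). Values in brackets after levels are this log2 fold change of iXEN over ES, its standard error (SE) and, for the main genes, the adjusted p of edgeR's quasi-likelihood test, and all those given with an SE were called under the rule defined below. Reads of the transgene and of the endogenous gene cannot be told apart in these counts. Gata6, the earliest factor of the lineage, was at 0.218 and 0.127 CPM in the ES libraries and 100.1 and 259 CPM in the iXEN libraries (10.03, SE 0.72, adjusted p = 1.1e-05). For both genes the ES libraries stayed under 1 CPM, and replicate 2 of iXEN was the higher. Sox17 (chr1:4490931-4497354, minus strand), which maintains the lineage, was at 0.0364 and 0.18 CPM in the ES libraries and 189 and 751 CPM in the iXEN libraries (12.01, SE 1.14, adjusted p = 4.2e-05). Pdgfra, the receptor by which the lineage is sorted, was at 0.0545 and 0.0374 CPM in the ES libraries and 80.1 and 123 CPM in the iXEN libraries (11.08, SE 0.50, adjusted p = 2.1e-06). The same 2 genes were at 17.6 and 52.6 CPM and at 43.2 and 78.5 CPM in 24h replicate 1 and 48h replicate 1. Within the project of iXEN they were thus still below both iXEN libraries. They were above the ES libraries, which were of another project. Sox7 differed least of the 5 endoderm genes, at 2.08 and 4.54 CPM in the ES libraries and 27 and 33.5 CPM in the iXEN libraries (3.19, SE 0.40, adjusted p = 0.00018), and its iXEN levels lay close to the 26.1 and 24.5 CPM of the 24h and 48h libraries.

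Pluripotency genes showed the opposite. Pou5f1 (chr17:35506018-35510772, plus strand), the master factor of the epiblast, was at 528 and 447 CPM in the ES libraries and 12.3 and 3.09 CPM in the iXEN libraries, a log2 fold change of -5.99, SE 0.62, adjusted p = 6.6e-05. In the project of iXEN it was still at 566 and 587 CPM at 24h and 48h. Sox2, its partner on DNA, was at 224 and 229 CPM in the ES libraries and 4.14 and 0.363 CPM in the iXEN libraries (-6.65, SE 0.93, adjusted p = 0.00033). Nanog was at 80.9 and 73.3 CPM in the ES libraries and 0.698 and 0.0631 CPM in the iXEN libraries (-7.67, SE 0.94, adjusted p = 0.00016). Zfp42 (Rex1), a marker of naive cells, was at 782 and 582 CPM in the ES libraries and 18.3 and 26.9 CPM in the iXEN libraries (-4.91, SE 0.25, adjusted p = 3.4e-06). All 4 were lower in both iXEN libraries than in any ES library, as were 6262 of the 15723 genes tested. The residue in iXEN was uneven for 3 of them, since replicate 1 held 12.3 against 3.09 CPM of Pou5f1 and 4.14 against 0.363 CPM of Sox2, whereas Zfp42 was slightly higher in replicate 2. The 133 cells with T lay in replicate 1, and their part in this residue was not tested.

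**Figure D1:**
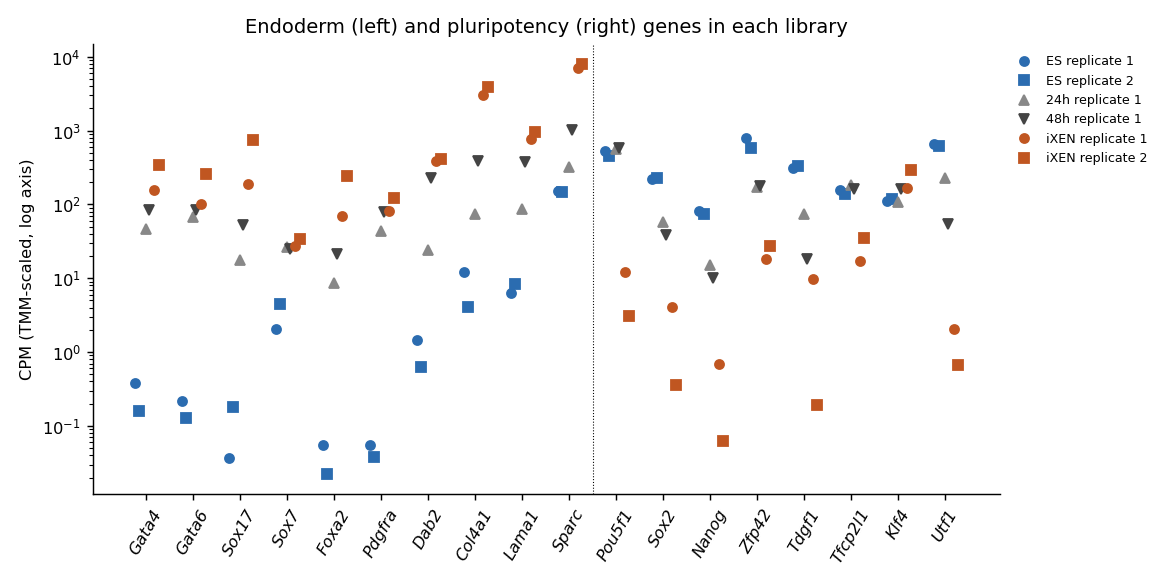
Level of 10 endoderm genes and 8 pluripotency genes in the 2 ES libraries (blue), the 2 iXEN libraries (orange) and the 24h and 48h libraries of the sequencing project of iXEN (grey), as TMM-scaled CPM on a log axis, with 1 point per library. Every endoderm gene was higher in both iXEN libraries, from Sparc at 7014 and 7849.6 CPM down to Sox7 at 27 and 33.5 CPM, and all pluripotency genes shown but Klf4 were lower.

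Across 15723 genes tested with edgeR's quasi-likelihood test, 6990 (44.5%) were called, that is, passed a Benjamini-Hochberg adjusted p of 0.05 with a fold change of 2 or more. Of these, 3702 (23.5% of the genes tested) were higher in iXEN and 3288 (20.9%) lower. Many changes were large, with 1186 genes called higher and 1061 called lower by 3 or more on the log2 scale. There were 154 genes that went from under 1 CPM in ES to at least 10 CPM in iXEN on average, and 110 that went the other way, against 5549 genes at 10 CPM or more in both. In scaled CPM the called higher genes gained 152476 together and the called lower genes fell by 205605. The TMM factors were 0.995 and 0.967 for ES and 1.28 and 1.11 for iXEN, so scaled totals differed between the groups. The imbalance of gains and losses cannot be told apart from this scaling. When libraries were scaled by plain totals in place of TMM, the median log2 fold change of all genes moved from 0.0088 to 0.29 and the calls split into 4536 higher and 2480 lower, so a call near the threshold depends on the scaling. Within the project of iXEN, 2177 of the 3702 genes called higher (58.8%) were also at least 2-fold above 24h replicate 1, and 156 were below it. Of the 3288 called lower, 1545 (47.0%) were at least 2-fold below that library and 117 above it. The same iXEN levels entered the calls, and the share over all genes tested was not counted. Of the genes that were off in ES and on in iXEN by the limits above, 15 had reached 10 CPM in 24h replicate 1 and 38 in 48h replicate 1.

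**Figure D2:**
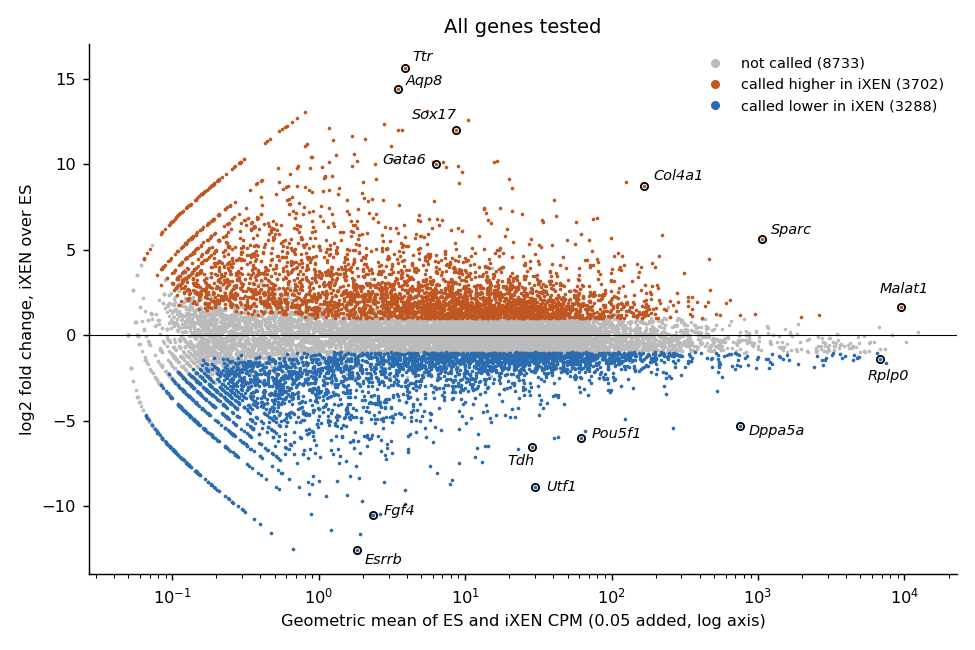
log2 fold change of iXEN over ES (vertical axis) against the geometric mean of the 2 group levels in CPM with 0.05 added (horizontal log axis) for 15723 genes, 1 point per gene. The 3702 genes called higher (orange) and 3288 called lower (blue) spread over all levels, with Ttr at the top, Esrrb at the bottom and Sparc and Col4a1 far to the right among the higher genes.

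The matrix genes had a UMI in most iXEN cells. Cells were thinned to 2000 UMIs each to compare shares at 1 depth, which left out 183 and 159 ES cells and 585 and 691 iXEN cells that were shallower. Sparc, a collagen-binding matrix protein, had a UMI in 93.9% and 98.9% of iXEN cells against 20.8% and 21.5% of ES cells. Col4a1 was detected in 87.3% and 96.4% of iXEN cells and in 1.54% and 0.704% of ES cells. For the transcription factors, whose transcripts are rarer, the shares in iXEN were 35.4% and 69.2% for Sox17, 31.9% and 49.4% for Gata4 and 21.8% and 39.1% for Gata6, with at most 0.0668% of ES cells in each case. For the transcription factors a share below 100% at this depth does not mark a cell as lacking the gene, since without thinning Sox17 was detected in 63.7% and 87.2%. Col4a1 was at 88.0% and 93.0% of iXEN cells without thinning. That share also counts the shallower cells, so it is not of the same cells as the thinned share. What set apart the cells without Col4a1 was not tested. Pou5f1 had a UMI in 63.5% and 56.0% of ES cells and in 2.10% and 0.705% of iXEN cells, and Zfp42 in 72.1% and 62.3% against 4.36% and 5.74%. Tfcp2l1, another naive factor, was in 26.2% and 23.1% of ES cells and 4.49% and 7.48% of iXEN cells. Klf4 went the other way, with a UMI in 19.6% and 19.3% of ES cells and 30.8% and 39.5% of iXEN cells. The shares of Sparc, Col4a1, Sox17, Gata4 and Gata6 were higher in replicate 2 of iXEN, while the Pou5f1 share was higher in replicate 1. Free RNA in the droplets was not measured, and its part in the shares of abundant transcripts was not tested.

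**Figure D3:**
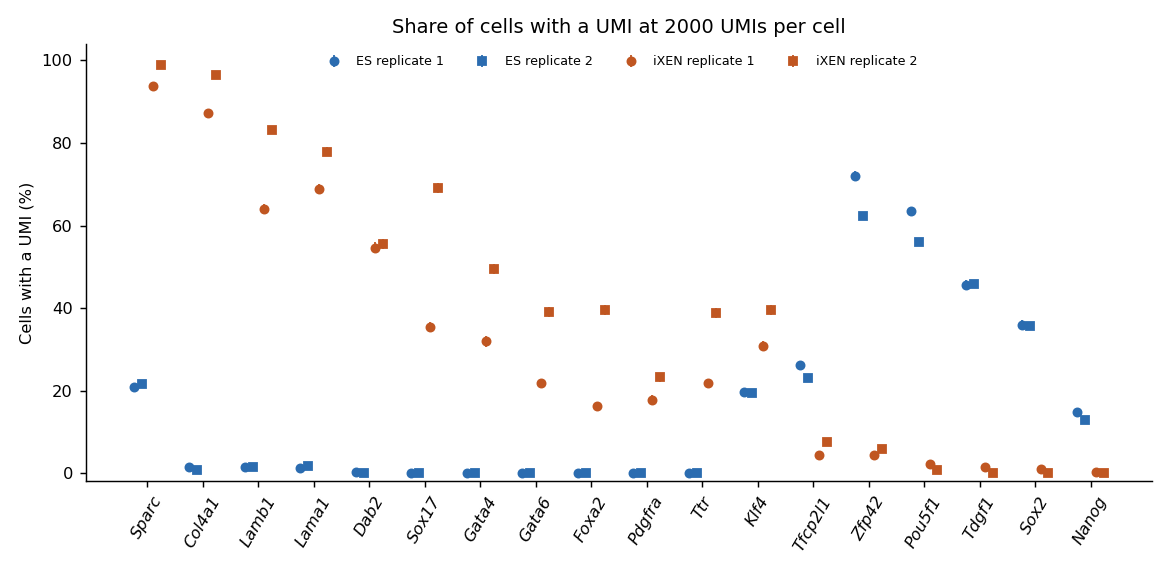
Percent of cells with at least 1 UMI of a gene after thinning each cell to 2000 UMIs, for 11 endoderm genes and 7 pluripotency genes in the 2 ES (blue) and 2 iXEN (orange) libraries, with 95% Wilson intervals that cover counting error only. Sparc reached 93.9% and 98.9% of iXEN cells, and of the pluripotency genes shown only Klf4 had a higher share in iXEN than in ES.

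The 10 largest ratios among called genes with at least 50 CPM on average in iXEN were those of Ttr, Aqp8, Myl3, Srgn, Gkn2, Sox17, S100g, Foxa2, Gkn1 and Pdgfra, of which Sox17 and Pdgfra are described above. Ttr, which encodes transthyretin, the thyroid hormone and retinol carrier of visceral endoderm and liver, had 1 UMI in the ES libraries and 35442 in iXEN, which gives a ratio of 69028 with a 95% counting interval of 12388 to 2726520. Aqp8, a water channel, had 2 UMIs in ES and 26394 in iXEN, a ratio of 25703 (7115 to 212247). In CPM, Ttr was at 157 and 407 and Aqp8 at 116 and 304 in the iXEN libraries, and in 48h replicate 1 Ttr was still at 0.0567 CPM while Aqp8 had reached 22.3. Myl3, a myosin light chain of heart and slow muscle, was at 0.0273 and 0.0449 CPM in ES and 72.4 and 619 in iXEN (13.14, SE 1.23, adjusted p = 3.8e-05), so that its iXEN duplicates differed more than those of most genes. Srgn, the core protein of a secretory granule proteoglycan, was at 0.164 and 0.0599 CPM in ES and 548 and 794 in iXEN (12.57, SE 0.78). The gastrokines Gkn1 and Gkn2, known as secreted proteins of the stomach surface, were at 26.6 and 97.1 CPM and 72.3 and 156 CPM in iXEN, against 0.00909 and 0.0299 and 0 and 0.0374 in ES. S100g, a calcium-binding protein of absorptive epithelia, went from 0.0545 and 0.015 to 221 and 63.1 CPM and was the only one of these genes higher in replicate 1. Foxa2, a pioneer factor of endoderm, went from 0.0545 and 0.0225 to 70.3 and 241 CPM (11.97, SE 1.22).

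The lowest ratios, among genes with at least 50 CPM on average in ES, included genes of the naive network. Esrrb, an orphan nuclear receptor that sustains self-renewal, had 13812 UMIs in ES and 1 in iXEN, a ratio of ES over iXEN of 7092 (1273 to 280128). Gdf3, a TGF-beta ligand of pluripotent cells, had 13530 UMIs against 2, a ratio of 3473 (961 to 28684). Fgf4, the ligand by which epiblast cells signal to primitive endoderm, was at 57 and 65.3 CPM in ES, 0.0649 and 0.0158 CPM in iXEN (-10.52, SE 0.98, adjusted p = 3.7e-05). Utf1, a chromatin protein of pluripotent cells, was at 664 and 616 CPM in ES, 2.03 and 0.678 CPM in iXEN (-8.89, SE 0.53). All 4 are genes of pluripotent cells, and among them only Utf1 was above 1 CPM in an iXEN library. Krt42, a keratin gene expressed in mouse ES cells, was at 58.3 and 60.5 CPM in ES, 0.0162 and 0.0631 CPM in iXEN, and Platr17, named as a pluripotency-associated transcript and listed as protein-coding in the annotation used, was at 102 and 93.6 CPM in ES, 0.13 and 0.0788 CPM in iXEN. The remaining genes of this rank were Urah, an enzyme of urate breakdown (-9.05), Pla2g1b, a secreted phospholipase (-8.44), Fam25c (-8.70) and the gene listed as GM7325 (-10.46).

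In CPM rather than ratios, 3 of the 5 genes that gained most were matrix genes. Sparc went from 154 and 148 CPM in ES to 7014 and 7849.6 CPM in iXEN (5.62, SE 0.32, adjusted p = 5e-06). Col4a1 and Col4a2, the chains of the commonest type IV collagen, overlap at their starts on opposite strands (chr8:11198423-11312826, minus strand, and chr8:11312805-11449287, plus strand). Col4a1 went from 12.1 and 4.03 to 3037 and 3873 CPM (8.74, SE 0.66, adjusted p = 1.3e-05) and Col4a2 from 9.03 and 2.22 to 2664 and 2846 CPM (8.94, SE 0.73, adjusted p = 1.9e-05). The pair had reached 384 and 428 CPM in 48h replicate 1. The nuclear non-coding RNA Malat1 was at 5575 and 5155 CPM in ES, 12095 and 21547 CPM in iXEN (1.65, SE 0.27, adjusted p = 0.00085) and beta-actin (Actb) at 1558 and 1872 CPM in ES, 4112 and 3769 CPM in iXEN (1.20, SE 0.19, adjusted p = 0.00067). Among losses the largest were Dppa5a, an RNA-binding protein of pluripotent cells, at 5226 and 4192 CPM in ES, 86.3 and 154 CPM in iXEN (-5.29, SE 0.29, adjusted p = 4.4e-06), and 4 ribosomal protein genes. Rplp1 was at 13398 and 13024 CPM in ES, 3838 and 4697 CPM in iXEN (-1.63, SE 0.15, adjusted p = 3.2e-05), Rplp0 at 10193 and 11668 CPM in ES, 4131 and 4311 CPM in iXEN (-1.37, SE 0.13), Rpl8 at 6878 and 7961 CPM in ES, 2251 and 3144 CPM in iXEN (-1.46, SE 0.17) and Rps18 at 8808 and 9915 CPM in ES, 4177 and 4959 CPM in iXEN (-1.04, SE 0.16). In the project of iXEN these 4 genes were at 10006 and 9784, 12123 and 11824, 7379 and 8027 and 11329 and 13828 CPM in 24h and 48h replicate 1, so the iXEN level was also the lowest there. Rps18 was not called with plain totals, without ES replicate 2 or without iXEN replicate 1.

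Gene lists for 38 pathways and gene classes were counted against the share of all genes called, 23.5% higher and 20.9% lower. The plot of lists shows 10 lists in which no or 1 tested member was called lower while more than 40% were called higher. They were endoderm factors, basement membrane, collagen folding, visceral secretion, ER, COPII and Golgi transport, lysosome, proteoglycans, integrins and the IGF axis. Members of a list are not independent, and no test of a list was made.

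**Figure D4:**
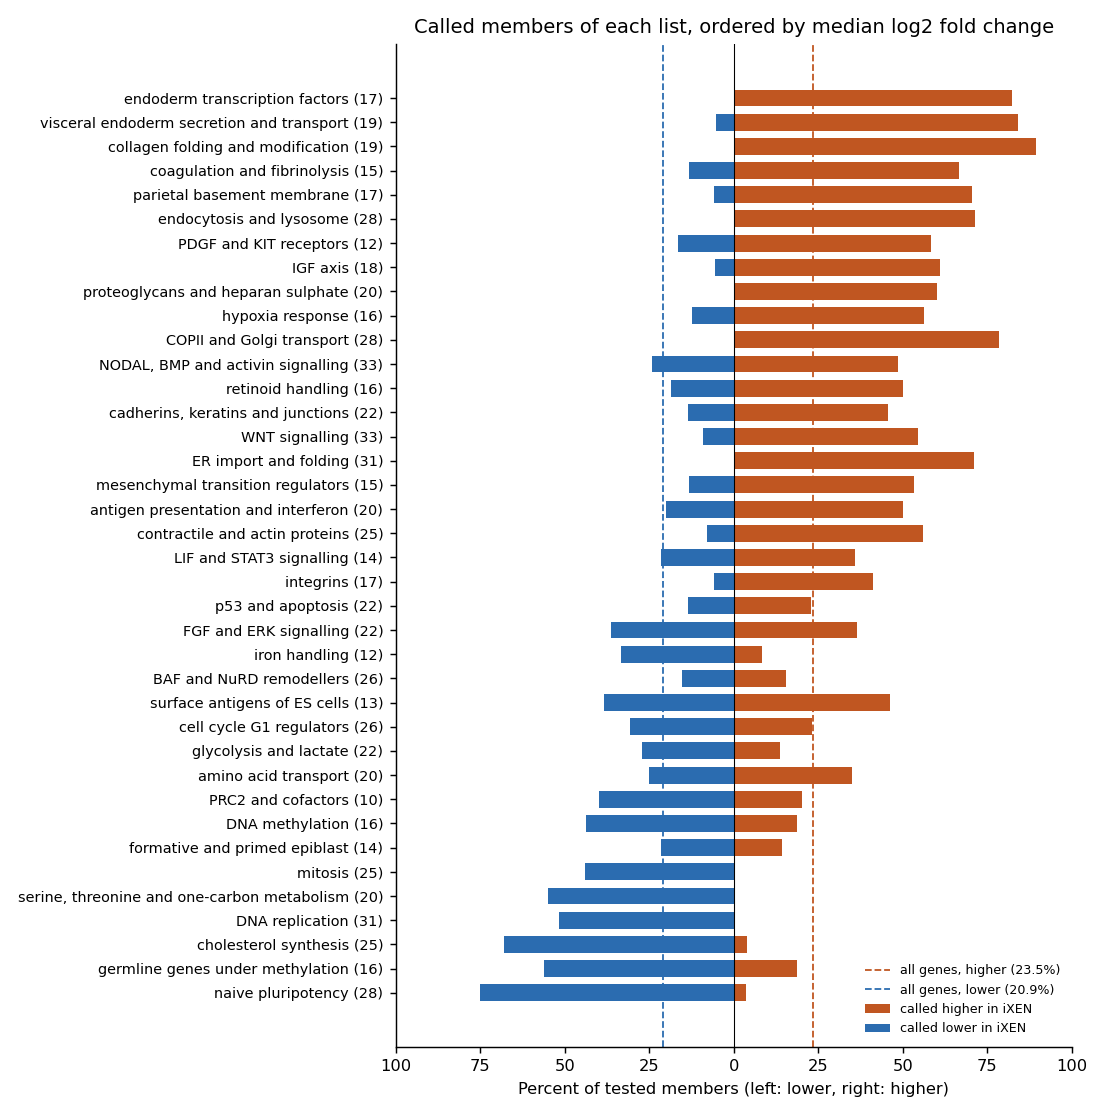
Percent of tested members called higher (orange, to the right) and lower (blue, to the left) in iXEN for 38 gene lists, ordered by median log2 fold change, with the number tested in brackets and dashed lines at the shares over all genes, 23.5% and 20.9%. Endoderm transcription factors, with 14 of 17 higher and a median of 7.29, stood at the top, and naive pluripotency, with 21 of 28 lower and a median of -5.22, at the bottom.

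Of 17 endoderm transcription factors tested, 14 were called higher and none lower. Tfec, a factor of the MITF family, had 0 UMIs in the ES libraries and 1249 in iXEN, which is at least 811-fold higher against a floor of 3 UMIs over the ES group, at 12.3 and 7.77 CPM. Hhex, Eomes and Prdm1 did not pass, with log2 fold changes of 0.88, 0.82 and -0.92, and the highest level among them was 18 CPM for Hhex in iXEN replicate 2. Of 9 markers used to tell parietal from visceral endoderm, all were called higher in iXEN at very different levels, which does not hold for every member of the visceral list given below. The parietal markers Thbd (thrombomodulin), Plat (tissue plasminogen activator) and Snai1 were at 26 and 42.4, 54 and 34 and 30 and 66.6 CPM in iXEN and no more than 1.95 CPM in ES. Of the visceral markers, Ttr at 157 and 407 CPM and the endocytic receptor Cubn at 30.8 and 24.3 CPM were well detected, while Afp (3.96 and 2.87), Apoa1 (1.62 and 6.31), Amn (4.27 and 3.53) and Hnf4a (6.1 and 4.34) stayed under 10 CPM. Both sets were thus present in the same libraries, and cells were not divided between them.

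The main chains of laminin and type IV collagen rose together. Of 17 basement membrane genes, 12 were called higher and 1 lower, with a median log2 fold change of 2.35. The laminin chain gene Lama1 was at 6.36 and 8.25 CPM in the ES libraries and 775 and 942 CPM in the iXEN libraries (6.88, SE 0.44, adjusted p = 6.8e-06), and its partner Lamb1 was at 543 and 1019 CPM in iXEN against 7.56 and 6.68 in ES. Fibronectin (Fn1) did not pass, at 124 and 106 CPM in ES, 113 and 32.9 CPM in iXEN (-0.66, adjusted p = 0.40). Col18a1, the collagen from which endostatin is cut, was the only member called lower, at 67.1 and 88.8 CPM in ES, 4.23 and 1.23 CPM in iXEN (-4.84, SE 0.62, adjusted p = 0.0002).

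The enzymes that hydroxylate, fold and ship collagen rose with it. Of 19 members, 17 were called higher and none lower (median 2.67), a larger share than in any other list. P3h2, a prolyl 3-hydroxylase of type IV collagen, was at 0.1 and 0.105 CPM in ES, 18 and 36.6 CPM in iXEN (8.04, SE 0.66). Creb3l2, a membrane-bound transcription factor that enlarges the secretory pathway, was at 1.62 and 1.12 CPM in ES, 127 and 163 CPM in iXEN (6.72, SE 0.39). P4ha2, a prolyl 4-hydroxylase subunit, was at 2.15 and 2.23 CPM in ES, 195 and 133 CPM in iXEN (6.22, SE 0.47). All 3 were at under 3 CPM in ES. The members not called were Lox (0.087), under 1 CPM in every library, and Fkbp10 (-0.81).

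Genes of the general secretory route rose by smaller steps. In the list of ER import and folding, 22 of 31 were called higher and none lower (median 1.20), led by the chaperone partners Dnajb9 (5.08 and 4.55 CPM in ES, 22.1 and 43.4 in iXEN, 2.76) and Dnajc3 (2.61) and the stress factor Ddit3 (15.1 and 9.42 CPM in ES, 89.9 and 58.6 in iXEN, 2.60). The translocon subunits Sec61b and Sec61g were not called, at -0.14 and -0.12 (adjusted p = 0.47 and 0.53). In the list of COPII and Golgi transport, which carries cargo from the ER, 22 of 28 were called higher and none lower (median 1.40). The cargo receptor Tmed3 was at 7.19 and 7.89 CPM in ES, 78.2 and 91.2 CPM in iXEN (3.49, SE 0.23), the retrieval receptor Kdelr3 at 27.4 and 24.9 CPM in ES, 236 and 267 CPM in iXEN (3.27, SE 0.22) and the coat subunit Sec24d at 4.14 and 6.57 CPM in ES, 39.1 and 35.1 CPM in iXEN (2.79, SE 0.28). With plain totals 27 and 24 members were called higher. In 48h replicate 1 Tmed3 and Kdelr3 were at 35.3 and 48.8 CPM, between the groups.

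Visceral endoderm is known to take up and digest protein for the embryo. Of 28 genes for endocytosis and lysosomes, 20 were called higher and none lower (median 2.22). The cathepsin gene Ctsh was at 0.454 and 0.322 CPM in ES, 215 and 155 CPM in iXEN (8.90, SE 0.33). Dab2, the adaptor that brings cubilin and megalin into clathrin pits, was at 1.46 and 0.629 CPM in ES, 389 and 410.1 CPM in iXEN (8.58, SE 0.67). Cubn, cubilin itself, was at 0.127 and 0.112 CPM in ES, 30.8 and 24.3 CPM in iXEN (7.83, SE 0.48). Among the 8 not called were the clathrin light chains Clta and Cltb and the adaptor subunit Ap2m1, at 0.42, -0.75 and 0.0071. Of 19 genes of visceral secretion and transport, 16 were called higher and 1 lower, with a median of 5.48, or 4.87 with genes at 0 in ES set to their bound. Rbp4, the retinol carrier of plasma, was at 1.03 and 0.599 CPM in ES, 419.7 and 507 CPM in iXEN (9.16, SE 0.57) and Ihh, a hedgehog ligand of visceral endoderm, at 0.136 and 0.18 CPM in ES, 49.6 and 305 CPM in iXEN (10.11, SE 0.93). Apoe was among the members not called, at 515 and 529 CPM in ES, 331 and 430.1 CPM in iXEN (-0.46, adjusted p = 0.26). The list's member called lower was Trf, transferrin (-5.96), which stayed under 6 CPM.

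Dab2 also shows a promoter with the letters that GATA factors bind. Searched were AGATAA and TGATAA on both strands (TTATCT and TTATCA on the other), which share 5 letters and may overlap, in windows from 250 bases before to 50 after each start in RefSeq (GRCm38.p6). At least 1 match stood in the windows of 12.5% of the 11626 tested genes with an entry, 14.4% of those called higher and 11.3% of those called lower. Among genes called with a change of 3 or more on the log2 scale, 166 of 869 higher genes and 97 of 718 lower genes (13.5%) held it. These higher genes had 1.33 windows each on average and these lower genes 1.23. By list, 3 of 11 endoderm factors, 0 of 12 basement membrane genes, 3 of 15 visceral secretion genes and 3 of 16 naive genes held a match. The windows differed in base composition as well, with a median CpG observed over expected ratio of 0.762 over all genes, 0.615 for the genes higher by 3 or more and 0.449 for those lower by 3 or more, and its part in the motif shares was not tested. A match is a description and not a bound site. Of the 2 windows of Dab2, the one at chr15:6299539-6299838 on the plus strand holds 2 matches, shown in capitals, and it is printed because Dab2 is an endoderm marker that was called higher and whose window carries the letters.

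Dab2: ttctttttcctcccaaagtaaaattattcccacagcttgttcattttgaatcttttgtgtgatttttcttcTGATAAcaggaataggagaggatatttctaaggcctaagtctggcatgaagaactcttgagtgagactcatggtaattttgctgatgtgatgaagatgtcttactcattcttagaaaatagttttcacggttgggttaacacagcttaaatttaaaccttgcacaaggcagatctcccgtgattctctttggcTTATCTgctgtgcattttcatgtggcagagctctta

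The other Dab2 window and that of Pdgfra held no match, which says only that these letters were not there. Promoters of Gata4, Sox7, Sox17 and Lama1 were not analysed here.

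Genes of proteoglycans, clotting factors and integrins were called higher more often than lower. Of 20 proteoglycan genes, 12 were called higher and none lower. Hs3st1, the sulphotransferase that makes the antithrombin-binding form of heparan sulphate, was at 0.427 and 0.479 CPM in ES, 242 and 828 CPM in iXEN (10.20, SE 1.18, adjusted p = 0.00012), the largest change of the list, and the glypicans Gpc3 and Gpc6 were at 61.4 and 34.3 and 34.7 and 13.7 CPM in iXEN against 2.76 and 1.7 and 1.45 and 0.921 in ES. Of 15 genes of coagulation and fibrinolysis, 10 were called higher and 2 lower, and the lower count was 0 with plain totals and 1 without ES replicate 1, iXEN replicate 1 or iXEN replicate 2. Both sides of that cascade were represented: tissue factor (F3), which starts clotting, was at 7.58 and 3.73 CPM in ES, 313 and 815 CPM in iXEN (6.64, SE 0.67), and Thbd and Plat, which restrain clotting and dissolve clots, had log2 fold changes of 8.99 and 7.60. Of 17 integrin and linker genes, 7 were called higher and 1 lower, led by the vitronectin receptor subunit Itgav (9.13 and 6.24 CPM in ES, 86.9 and 85.8 CPM in iXEN, 3.49), the kinase Ilk (2.43) and the common subunit Itgb1 (1.76). The laminin receptor subunit Itga6 was not called (71.3 and 73.3 CPM in ES, 54.2 and 119 CPM in iXEN, adjusted p = 0.58).

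Epithelial and contractile genes rose in part. Of 22 genes of cadherins, keratins and junctions, 10 were called higher and 3 lower. The simple-epithelial keratins Krt18 (79.6 and 20.1 CPM in ES, 782 and 796 CPM in iXEN, 3.99, SE 0.64) and Krt8 (62.2 and 23.8 CPM in ES, 524 and 583 CPM in iXEN, 3.69, SE 0.42) and the desmosome protein Dsp (3.46) led, and in ES all 3 were 2-fold or more higher in replicate 1, the library with most cells of the low-naive cluster. Cdh1 (E-cadherin) and Epcam, which both states express, were not called, at 56.1 and 62 CPM in ES, 31.7 and 76.3 CPM in iXEN (-0.13) and 229 and 201 CPM in ES, 69.1 and 159 CPM in iXEN (-0.91). Of 15 regulators of mesenchymal transition, 8 were called higher and 2 lower, a count that fell to 5, 4 and 5 higher without ES replicate 1, ES replicate 2 or iXEN replicate 1. Snai1, a repressor of epithelial genes, was at 1.95 and 1.01 CPM in ES, 30 and 66.6 CPM in iXEN (5.03, SE 0.45), and the receptor gene Tgfbr2 at 1.33 and 0.868 CPM in ES, 21.9 and 33.6 CPM in iXEN (4.66, SE 0.35). Of 25 contractile and actin genes, 14 were called higher and 2 lower, with Tpm4, a tropomyosin, at 49.6 and 41.6 CPM in ES, 352 and 477 CPM in iXEN (3.18, SE 0.21) and caldesmon (Cald1) at 104 and 35.9 CPM in ES, 514 and 505 CPM in iXEN (2.86, SE 0.41).

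The naive list was nearly a mirror image of the endoderm factors. Of 28 members, 21 were called lower, 1 higher and 6 were not called. Besides Esrrb and Gdf3, the lowest was Tcl1, a co-activator of AKT, at 36.3 and 44.4 CPM in ES, 0.0487 and 0.0473 CPM in iXEN (-9.67, SE 0.64). The member called higher was Klf4 at 112 and 117 CPM in ES, 169 and 289 CPM in iXEN (1.00, SE 0.31, adjusted p = 0.02), at the edge of the fold limit, and it was not called in 8 of 16 alternative settings. Among members not called were Sall4, at 166 and 197 CPM in ES, 158 and 179.8 CPM in iXEN (-0.10), Tbx3, at 69.3 and 54.9 CPM in ES, 51.4 and 67.5 CPM in iXEN (-0.064), and Klf5, at 207 and 236 CPM in ES, 75 and 206 CPM in iXEN (-0.66), all factors that endoderm is known to express as well. In the project of iXEN these 3 were at 248 and 370.3, 254 and 229 and 388 and 501 CPM at 24h and 48h, above both groups.

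The formative and primed genes, which mark the exit from naive pluripotency towards the embryo proper, gave no common direction. Of 14, 2 were called higher and 3 lower, and the lower count was 9 without iXEN replicate 1 and the higher count 4 without iXEN replicate 2. Foxd3, a repressor needed in the epiblast, was lowest, with 3336 UMIs in ES and 1 in iXEN, a ratio of 1713 (307 to 67674). Pou3f1 (OCT6) was at 16.4 and 42.2 CPM in ES, 3.08 and 6.04 CPM in iXEN (-2.69, SE 0.67) and Dnmt3b at 94.8 and 136 CPM in ES, 42.1 and 33.7 CPM in iXEN (-1.60, SE 0.29). Sox4 was called higher, at 24 and 25.6 CPM in ES, 95.2 and 69 CPM in iXEN (1.72, SE 0.51). Pou3f1 lost its call without ES replicate 2 or iXEN replicate 1, and Sox4 without either of these or without ES replicate 1. T itself was at 1.15 and 3.15 CPM in ES, 13.2 and 0.0158 CPM in iXEN (1.61, adjusted p = 0.38), so that nearly all of its iXEN level was in replicate 1.

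The signalling lists held genes that moved in both directions. In the FGF and ERK list, 8 of 22 were called higher and 8 lower (the higher count was 5 without ES replicate 1). The ligand Fgf4 fell as described, the ligand Fgf3 was at 2.19 and 2.56 CPM in ES, 11.1 and 57.3 CPM in iXEN (3.85, SE 0.78) and the receptor Fgfr3 at 1.55 and 3.58 CPM in ES, 5.48 and 17.4 CPM in iXEN (2.15, SE 0.54). Etv4 and Etv1, transcription factors that ERK activity turns on, were at 112 and 117 CPM in ES, 7.06 and 1.26 CPM in iXEN (-4.78, SE 0.64) and 18.6 and 20.3 CPM in ES, 1.38 and 0.0315 CPM in iXEN (-4.79, SE 0.90). The inhibitor Spry2 was higher (36.1 and 60.7 CPM in ES, 66.7 and 218 CPM in iXEN, 1.56) while Dusp6, the ERK phosphatase, was not called (-0.30), so targets of the pathway did not share a direction. Fgfr3 and Spry2 lost their calls without ES replicate 1 or iXEN replicate 2. In the LIF and STAT3 list, 5 of 14 were called higher and 3 lower: the kinases Jak2 (1.18 and 0.838 CPM in ES, 9.72 and 16 CPM in iXEN, 3.67, SE 0.36) and Jak1 (1.40) and the receptor Lifr (16.7 and 17.2 CPM in ES, 96.8 and 105 CPM in iXEN, 2.57, SE 0.22) on the one side, and the targets Socs2 (129 and 117 CPM in ES, 11.8 and 5.66 CPM in iXEN, -3.81, SE 0.34), Pim3 (-2.54) and Pim1 (-2.35) on the other. Socs3, another target, was at 51.6 and 47.2 CPM in ES, 16.8 and 35.2 CPM in iXEN and not called (-0.92).

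Of 33 WNT genes, 18 were called higher and 3 lower. The secreted inhibitor Dkk1 was at 0.173 and 0.0599 CPM in ES, 6.3 and 24.8 CPM in iXEN (7.08, SE 0.88), the ligand Wnt11 at 0.245 and 0.225 CPM in ES, 7.95 and 15.8 CPM in iXEN (5.65, SE 0.43) and the nuclear factor Tcf7l2 at 17.3 and 16.7 CPM in ES, 284 and 467 CPM in iXEN (4.47, SE 0.26). Wnt6 and the inhibitor Sfrp1 were lower (-1.80 and -1.86). The lower count was 8 without iXEN replicate 1 and 1 without ES replicate 2 or with plain totals, and Wnt6 lost its call without either ES library. In the NODAL, BMP and activin list, 16 of 33 were called higher and 8 lower. Fst (follistatin, which traps activin) was at 3.05 and 4.35 CPM in ES, 258 and 671 CPM in iXEN (6.97, SE 0.69), the ligand Bmp2 at 0.918 and 0.255 CPM in ES, 34 and 97.1 CPM in iXEN (6.82, SE 0.84) and the BMP antagonist Nog at 0.727 and 0.225 CPM in ES, 14.6 and 17 CPM in iXEN (5.06, SE 0.56). On the falling side stood Gdf3, the co-receptor Tdgf1 (Cripto), at 315 and 328 CPM in ES, 9.88 and 0.189 CPM in iXEN (-6.00, SE 1.52), and the activin subunit Inhbb, at 23 and 26.5 CPM in ES, 0.0324 and 0.568 CPM in iXEN (-6.35, SE 0.78).

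Of 12 genes of PDGF, KIT and VEGF signalling, 7 were called higher and 2 lower. Beside Pdgfra, the VEGF receptor Flt1 was at 2.35 and 0.719 CPM in ES, 88.3 and 199.5 CPM in iXEN (6.56, SE 0.83) and the stem cell factor receptor Kit at 4.1 and 4.51 CPM in ES, 129 and 213 CPM in iXEN (5.31, SE 0.33). Pdgfa, the ligand of PDGFRA, was lower while its receptor was higher, at 146 and 141 CPM in ES, 42.7 and 48 CPM in iXEN (-1.66, SE 0.16). Of 16 genes of retinoid handling, 8 were called higher and 3 lower, and the lower count was 5 without iXEN replicate 1 and 1 with plain totals, without ES replicate 1 or without iXEN replicate 2. Next to Rbp4, the retinoic acid hydroxylase Cyp26a1 was at 0.409 and 0.344 CPM in ES, 47.9 and 126 CPM in iXEN (7.85, SE 0.53) and the retinol dehydrogenase Rdh10 at 3.6 and 3.5 CPM in ES, 47 and 64.1 CPM in iXEN (3.97, SE 0.28). The receptors Rarg and Rara were lower, at 57.5 and 66.5 CPM in ES, 5.01 and 0.552 CPM in iXEN (-4.48, SE 0.75) and 42.3 and 41.1 CPM in ES, 25.3 and 13.2 CPM in iXEN (-1.12, SE 0.31). Of 18 genes of the IGF axis, 11 were called higher and 1 lower, with Igf1 at 0.0273 and 0.0299 CPM in ES, 19.5 and 19.5 CPM in iXEN (9.33, SE 0.82), Igfbp5 at 1.25 and 0.105 CPM in ES, 18.7 and 20 CPM in iXEN (4.85, SE 0.90), the RNA-binding protein Igf2bp2 at 14.5 and 11.2 CPM in ES, 81 and 153 CPM in iXEN (3.19, SE 0.31) and Igfbp2 at 88 and 121 CPM in ES, 30.4 and 6.59 CPM in iXEN (-2.50, SE 0.92). Rara and Igfbp2 lost their calls without ES replicate 1, without iXEN replicate 2 or with plain totals, and Igfbp2 also without ES replicate 2.

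No gene of one-carbon metabolism and 1 of sterol synthesis was called higher, and many were called lower. Of 25 cholesterol synthesis genes, 17 were called lower and 1 higher (median -1.31). Idi1, the isopentenyl diphosphate isomerase, was at 51.7 and 66.5 CPM in ES, 10.2 and 5.23 CPM in iXEN (-2.93, SE 0.38), Fdps, which makes farnesyl diphosphate, at 58.9 and 44.2 CPM in ES, 15.2 and 4.45 CPM in iXEN (-2.39, SE 0.60), and the phosphomevalonate kinase Pmvk, at 94.4 and 102 CPM in ES, 28.8 and 21.5 CPM in iXEN (-1.96, SE 0.38). Insig1, the sterol sensor that holds back the pathway, was the member called higher, at 20 and 25.4 CPM in ES, 129.9 and 215 CPM in iXEN (2.93, SE 0.44). The lower count was 8 with plain totals, 6 without ES replicate 2 and 6 without iXEN replicate 2, and the higher count was 4 with plain totals and 3 without iXEN replicate 2. Idi1 was at 23.8 and 6.14 CPM at 24h and 48h in the project of iXEN, so by 48h it lay within the iXEN range. Of 20 genes of serine, threonine and one-carbon metabolism, 11 were called lower and none higher, or 8 lower with plain totals and 9 without ES replicate 2. Tdh, the threonine dehydrogenase on which mouse ES cells depend, was at 252 and 297 CPM in ES, 4.33 and 1.61 CPM in iXEN (-6.53, SE 0.54, adjusted p = 2.1e-05), and the next lowest were the glycine cleavage subunit Amt (25.5 and 28.6 CPM in ES, 4.22 and 2.13 CPM in iXEN, -3.09, SE 0.35) and Gcat, which acts after Tdh (38 and 39.5 CPM in ES, 10.6 and 4.05 CPM in iXEN, -2.40, SE 0.39).

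Of 22 members of the glycolysis list, 3 were called higher and 6 lower, shares not far from the 23.5% and 20.9% of all genes. The lactate carrier Slc16a1 was at 22.9 and 25.4 CPM in ES, 234 and 332 CPM in iXEN (3.55, SE 0.21) and the glucose carrier Slc2a3 at 196 and 193 CPM in ES, 638 and 872 CPM in iXEN (1.96, SE 0.22). Pfkp, a phosphofructokinase, and Pdk1, a kinase that inhibits pyruvate dehydrogenase, were lower, at 20.5 and 30.3 CPM in ES, 1.02 and 0.867 CPM in iXEN (-4.75, SE 0.49) and 88.9 and 124 CPM in ES, 11.3 and 19.4 CPM in iXEN (-2.79, SE 0.29). Aldoa, Ldha and Hk2 were among those not called (-0.40, -0.38 and -0.32). Amino acid transporters split into 7 higher and 5 lower of 20, or 3 lower with plain totals or without ES replicate 2: Slc7a6 was at 9.15 and 8.94 CPM in ES, 56.8 and 73.1 CPM in iXEN (2.84, SE 0.19), while the arginine carrier Slc7a3 was at 21.8 and 28.3 CPM in ES, 0.6 and 0.0788 CPM in iXEN (-6.21, SE 0.64). Of 12 iron genes, 1 was called higher (3 with plain totals, 2 without ES replicate 2 or either iXEN library) and 4 lower, with the transferrin receptor Tfrc at 64.8 and 92.2 CPM in ES, 15.7 and 16.8 CPM in iXEN (-2.27, SE 0.25), and the ferritin chains Ftl1 and Fth1 were not called (0.17 and -0.14). Of 16 hypoxia genes, 9 were called higher and 2 lower, including the collagen enzyme P4ha1 (9.42 and 10.8 CPM in ES, 382 and 577 CPM in iXEN, 5.56, SE 0.25) and Epas1 (HIF2 alpha; 21.4 and 37.2 CPM in ES, 333 and 672 CPM in iXEN, 4.10, SE 0.53). The count of higher hypoxia genes was 4 without ES replicate 1 and 4 without iXEN replicate 2, and Egln3, at 4.98 and 11.3 CPM in ES, 18.8 and 139 CPM in iXEN, lost its call without either of these libraries.

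The D-type cyclins moved in opposite directions. Of 26 G1 regulators, 6 were called higher and 8 lower (5 lower with plain totals). That was 23.1% and 30.8% of the list, against 23.5% and 20.9% of all genes tested. Ccnd2 was at 14.8 and 15.1 CPM in ES, 306 and 315 CPM in iXEN (4.38, SE 0.61, adjusted p = 0.00032) and Ccnd1 at 141 and 133 CPM in ES, 19.6 and 3.56 CPM in iXEN (-3.57, SE 0.72, adjusted p = 0.0024). Cyclin E1 (Ccne1), which is high throughout the ES cell cycle, was at 190.1 and 192 CPM in ES, 27.6 and 27 CPM in iXEN (-2.81, SE 0.36). The inhibitors Cdkn1a (p21) and Cdkn2a (the INK4A and ARF locus) were at 55.6 and 36.7 CPM in ES, 471 and 524 CPM in iXEN (3.43, SE 0.28) and 13.7 and 4.36 CPM in ES, 107 and 93.6 CPM in iXEN (3.48, SE 0.51). In 48h replicate 1 they were at 42.8 and 8.73 CPM, near ES. Of 31 DNA replication genes, 16 were called lower and none higher (median -1.06), and of 25 mitosis genes 11 lower and none higher (median -0.99). The lowest were Gins1 (16.2 and 17.6 CPM in ES, 3.7 and 4.93 CPM in iXEN, -1.97, SE 0.23), of the replicative helicase, and Bub1b (52.1 and 47 CPM in ES, 13 and 9.4 CPM in iXEN, -2.15, SE 0.19), of the spindle checkpoint. These medians lie near the fold limit: with plain totals the counts were 9 and 2, without iXEN replicate 1 the replication count was 10, and without ES replicate 1 the mitosis count was 7. Mki67, the proliferation marker, did not pass (33.2 and 27.9 CPM in ES, 22.6 and 34.8 CPM in iXEN, -0.088, adjusted p = 0.76).

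In the p53 list 5 of 22 were called higher and 3 lower, with a median of 0.39. These shares, 22.7% and 13.6%, were no larger than the 23.5% and 20.9% of all genes tested. Trp53, p53 itself, was at 231 and 209 CPM in ES, 66 and 28.2 CPM in iXEN (-2.23, SE 0.35), while its targets Cdkn1a, Eda2r (7.02 and 8.77 CPM in ES, 33.5 and 41.3 CPM in iXEN, 2.24, SE 0.26) and Trp53inp1 (1.65) were higher and its targets Bax and Phlda3 were not called (-0.87 and 0.83). With plain totals the higher count was 8, and without iXEN replicate 1 the lower count was 7.

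Several enzymes that write or oxidise DNA methylation were lower in iXEN. Of 16 DNA methylation genes, 7 were called lower and 3 higher. Dnmt3l, the cofactor of the de novo methyltransferases, was at 73.2 and 89.4 CPM in ES, 3.83 and 2.54 CPM in iXEN (-4.67, SE 0.33, adjusted p = 1e-05), and the dioxygenases Tet1 and Tet2 were at 142 and 155 CPM in ES, 12.8 and 2.82 CPM in iXEN (-4.26, SE 0.59) and 37.6 and 37.9 CPM in ES, 7.32 and 5.64 CPM in iXEN (-2.54, SE 0.20). Their relative Tet3 was higher, at 5.61 and 6.18 CPM in ES, 38.8 and 30.5 CPM in iXEN (2.56, SE 0.20), and Dnmt1, the maintenance enzyme, was not called (-0.61). Dnmt3l and Tet2 were higher than in ES at 48h in the project of iXEN, at 150.4 and 73.9 CPM. Of 10 genes of PRC2, the complex that writes H3K27 methylation, 2 were called higher and 4 lower, and without iXEN replicate 2 the higher count was 1. The accessory subunit Jarid2 was at 311 and 303 CPM in ES, 36.2 and 25.9 CPM in iXEN (-3.30, SE 0.22) and the core subunit Eed at 143 and 131 CPM in ES, 32.6 and 39.2 CPM in iXEN (-1.93, SE 0.16), the catalytic subunit Ezh2 was not called (148 and 108 CPM in ES, 61.6 and 76.4 CPM in iXEN, -0.90), and the histone binder Rbbp7 was higher (96.3 and 83 CPM in ES, 308 and 466 CPM in iXEN, 2.11, SE 0.21). Of 26 BAF and NuRD genes, 18 were not called. In each direction 4 were called (15.4%), a share below the 23.5% higher and 20.9% lower of all genes tested. Of the ATPases of BAF, Smarca2 (BRM) was at 0.7 and 0.584 CPM in ES, 38.5 and 33.2 CPM in iXEN (5.80, SE 0.33, adjusted p = 5e-06) and Smarca4 (BRG1) at 97.4 and 105 CPM in ES, 80 and 72.8 CPM in iXEN (-0.41, not called).

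Germline genes that DNA methylation silences in other cells were mostly lower in iXEN, 9 of 16 against 3 higher, though none of those called lower passed 6 CPM in any library. The exceptions were genes of the X-linked Rhox cluster, known from placenta and testis: Rhox5 was at 7 and 3.92 CPM in ES, 188 and 208 CPM in iXEN (5.18, SE 0.71, adjusted p = 0.00029) and Rhox6 at 0.518 and 0.284 CPM in ES, 43.2 and 61.5 CPM in iXEN (7.03, SE 0.39). Without iXEN replicate 1, 5 members were called higher. Antigen presentation and interferon genes counted 10 higher and 4 lower of 20. B2m, the light chain of MHC class I, was at 18.6 and 15.7 CPM in ES, 230.3 and 357 CPM in iXEN (4.10, SE 0.29), the heavy chain gene H2-D1 at 7.72 and 8.86 CPM in ES, 72.1 and 87.4 CPM in iXEN (3.27, SE 0.26) and the receptor Ifngr1 at 1.65 and 1.74 CPM in ES, 9.02 and 16.7 CPM in iXEN (2.92, SE 0.37). The membrane proteins Ifitm3 and Ifitm2 were lower, at 264 and 304 CPM in ES, 42.3 and 19.8 CPM in iXEN (-3.19, SE 0.46) and 301 and 337 CPM in ES, 107 and 43.1 CPM in iXEN (-2.09, SE 0.37). H2-D1 belongs to a family of near-identical genes, and its counts may include reads of relatives. Of 13 genes of surface antigens, 6 were higher and 5 lower. Alkaline phosphatase (Alpl) and Icam1 were lower, with Alpl at 21.3 ± 3.1 CPM in ES and 0.789 ± 0.491 in iXEN (mean ± SD, n = 2, -4.76) and Icam1 at -2.97, and Podxl and Cd24a, which many epithelia carry, were higher (3.42 and 6.64 CPM in ES, 97.5 and 149 CPM in iXEN, 4.61, and 26.8 and 25.5 CPM in ES, 169.6 and 211 CPM in iXEN, 2.86).

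Markers of other cell types were low in all 4 libraries. The summed level of the 10 fibroblast markers tested was 15.4 and 4.5 CPM in the ES libraries and 18.7 and 4.38 in iXEN, with Col1a1 at 4.27 and 0.15 CPM in ES, 2.92 and 0.631 CPM in iXEN and 1 member called higher (Twist1, 0.418 and 0.517 CPM in ES, 4.54 and 1.32 CPM in iXEN) and 1 lower (Thy1). The higher count was 4 without ES replicate 1 and 6 without the ES cluster low in naive genes, and Twist1 itself lost its call without ES replicate 1, ES replicate 2 or iXEN replicate 1. The 8 trophoblast markers summed to 16.5 and 8.75 CPM in ES and 32.6 and 12.9 CPM in iXEN, where Gcm1 was at 0, 3 called higher and 3 lower, with Hand1 at 2.56 and 0.172 CPM in ES, 10.3 and 0.946 CPM in iXEN and Cdx2 at 2.39 and 0.696 CPM in ES, 7.38 and 4.67 CPM in iXEN. The higher count was 5 without ES replicate 1 and 1 without iXEN replicate 1. The 9 mesoderm and blood markers summed to 4.59 and 5.67 CPM in ES and 37.9 and 1.91 CPM in iXEN, 2 called higher and 1 lower, and replicate 1 of iXEN stood out through Mixl1 (0.773 and 0.629 CPM in ES, 13.6 and 0.11 CPM in iXEN) and T. Without that library 5 members were called lower, and without iXEN replicate 2 5 were called higher. The 8 neural ectoderm markers summed to 39.2 and 52 CPM in ES and 16.2 and 12.5 CPM in iXEN, 1 called higher and 3 lower, mostly Tubb3 (24.3 and 34.2 CPM in ES, 4.04 and 0.552 CPM in iXEN). The higher count was 0 without either ES library or without iXEN replicate 1. Of 10 markers of 2-cell-like cells only Usp17lc was tested, at 0.191 and 0.0823 CPM in ES, 0 and 0 CPM in iXEN. The 14 genes of the dissociation response summed to 369 and 438 CPM in ES and 742 and 764 in iXEN, with 3 called higher and 1 lower. These shares, 21.4% and 7.1%, were below the 23.5% and 20.9% of all genes tested. Atf3 was at 4.91 and 3.47 CPM in ES, 81.6 and 122 CPM in iXEN (4.60, SE 0.49, adjusted p = 7.3e-05), Jun at 9.97 and 10.9 CPM in ES, 132 and 140.2 CPM in iXEN (3.70, SE 0.66, adjusted p = 0.0013) and Ier3 at 15.6 and 10.6 CPM in ES, 36.4 and 50.2 CPM in iXEN (1.73), while Hsph1 was lower (-1.73) and Ier2 was not called (-0.82). In 24h and 48h replicate 1 of the project of iXEN, Atf3 was at 3.37 and 1.53 CPM and Jun at 6.81 and 12.6 CPM. These genes respond to handling of cells as well as to signalling, and the part of dissociation, or of the other cell types above, in the results was not tested.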

How the data were processed

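RNA had been captured in droplets with 3′ tags, and the deposited tables are whole-number UMI counts per cell and gene, made by the authors with SEQC on the mouse build mm10 and not normalised. Cells with 500 or more detected genes were kept, a limit set for this comparison and not given in the methods of the study, and their counts were summed in each library, which left 48141903 to 138204184 UMIs. The 10 libraries from ES to iXEN were fitted together in edgeR 4.0.16 (quasi-likelihood test, TMM scaling, filterByExpr, R 4.3.3), which left 5 residual degrees of freedom, and iXEN was compared with ES. A gene was called at a Benjamini-Hochberg adjusted p below 0.05 over all 15723 genes tested and a fold change of 2 or more. The fit was also run on simulated counts, and no result given here rests on that run. DESeq2 1.42.0, other scalings and filters, and leaving out each library were alternatives. Scrublet marked next to no cells, so doublets were not removed in the values reported, and leaving out the 6% of cells with the highest scores was an alternative.

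The genes named were the 9 that define the states, the 10 highest and 10 lowest fold changes with at least 50 CPM in the higher group, the 5 largest gains and losses in CPM, up to 3 called members in each direction of a list with at least 10 CPM, members not called with at least 50 CPM, and the leading members of marker lists. Trf, Thy1, Gcm1, Dusp6, Socs3, Mki67, Lox, Fkbp10, Hhex, Eomes and Prdm1 fall outside this rule and were chosen after their values were seen. The comparison, the lists and their members were chosen with earlier results of these data known. Of 22936 symbols, 22012 were found in the gene annotation used for positions.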

Additional observations from a re-analysis of the deposited data

How the results depend on the processing

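The number of genes called lay between 5940 and 7219 in all 15 alternatives that kept the limit of 1 on the log2 scale, against 6990, and no gene was called in the opposite direction in any of them. It was 6988 with DESeq2 size factors, 7016 with plain totals, 6851 with the DESeq2 test and 7115 without a filter on low counts. A limit of 2 in place of 1 left 3797 calls, 2077 higher and 1720 lower, which follows from the limit itself. Leaving out 1 library gave 5940 to 7123 calls, 3140 to 3638 higher and 2800 to 3485 lower, where a lone library was assumed to vary like the other groups. Replicate numbers were not taken to pair the ES and iXEN libraries, since the deviations of same-numbered libraries of these groups correlated at 0.032 over genes, although the value was 0.23 for 48h and iXEN and 0.33 for 24h and 48h. At 24h and 48h, replicate 1 and replicate 2 were also of different sequencing projects. A fit with the replicate block gave 7070 calls, 3706 higher and 3364 lower. Of the 195 named genes in 16 settings, 2994 values kept direction and call, 108 lost the call, 8 gained it and 8 changed sign. Usp17lc gave no value in 2 settings, without ES replicate 1 and with only the 4 ES and iXEN libraries in the fit. The sign changes were in genes not called in the values reported, and 4 of them passed the call rule of edgeR in their own setting: Col1a1 without the ES cluster (adjusted p = 0.0063) and without ES replicate 1 (0.023), and Mixl1 (0.0044) and T (0.0037) without iXEN replicate 1. Col1a1 was at 0.014 with plain totals, 0.0057 with the replicate block, 3.09 without the ES cluster low in naive genes and -1.81 to 3.56 without 1 library. Without 1 library, Hand1 lay between -0.53 and 5.02, Mixl1 between -2.65 and 4.27 and T between -6.97 and 2.60, lowest each time without iXEN replicate 1. The cause was not tested. Counts of 2 or fewer list members moved by 1 in further lists: without iXEN replicate 1 the lower count went to 2 in integrins and the IGF axis and to 1 in proteoglycans, lysosome and hypoxia, without iXEN replicate 2 it went to 2 in basement membrane and dissociation genes, and without ES replicate 1 to 1 in contractile genes. Depth gives only a bound, and no ratio, for the 76 genes called higher with 0 UMIs in ES and the 94 called lower with 0 UMIs in iXEN.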

Other observations

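Some groups of genes were read after the fit, so their choice followed their values. Of 83 cytosolic ribosomal protein genes tested, 25 were called lower and none higher in iXEN, against 20.9% and 23.5% of all genes tested, and 81 had a log2 fold change below 0, with a median of -0.86. Their summed level was 364215 and 391617 CPM in the ES libraries and 198385 and 240018 CPM in the iXEN libraries. In the sequencing project of iXEN it was 414272 CPM in 24h replicate 1 and 486092 CPM in 48h replicate 1, both above either iXEN library. These sums were TMM-scaled, with factors of 0.995 and 0.967 for ES and 1.28 and 1.11 for iXEN. The size of the difference between the groups therefore depends on the scaling. Of 21 genes of the Platr series, named as pluripotency-associated transcripts, 14 were called lower and none higher, with a median of -3.51. Of 10 genes of the Rhox cluster, 7 were called higher and 2 lower.

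Cells with 2 or more UMIs of T were also found in ES, 14 of 7669 (0.183%) in replicate 1 and 66 of 9246 (0.714%) in replicate 2. Cells were not thinned for this count, and those with T were deeper. Their median was 17933 UMIs against 13136 in the other cells of ES replicate 1 and 24266 against 13130 in ES replicate 2. In iXEN replicate 1 it was 10447 against 7333, so the ES and iXEN shares are not at 1 depth. In the 133 such cells of iXEN replicate 1, Mixl1, a homeobox gene of the primitive streak, was at 216 unscaled CPM against 11.1 in the other cells, Tdgf1 at 187 against 7.09 and Cdh2 (N-cadherin) at 131 against 27.3. Col4a1 was at 627 in them against 3991, and Gata6 at 37.7 against 131. The cells were picked by T, so its own level is no result.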
